A study of Mus musculus with 6 samples.

Results

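The 10 genes described here encode enzymes of ceramide and sphingolipid synthesis and were taken as a named list of the pathway, drawn up with earlier results of these data known. They are Sptlc1, Sptlc2, Cers2, Cers4, Cers5, Cers6, Degs1, Sgms1, Ugcg and Sphk1, out of 24984 genes listed in the count files. All 10 passed the filter on low counts that left 14065 genes for testing. The libraries come from bulk RNA sequencing of inguinal white adipose tissue, which lies under the skin of the groin, in 3 Mpst knockout (KO) and 3 wild-type (WT) samples. All mice, WT included, had been on a high-fat diet. Mpst encodes a sulfurtransferase of cytosol and mitochondria that takes part in cysteine breakdown and in making hydrogen sulfide. The labels leave out which cells carry the deletion, its extent, and the strain, sex and age of the mice. The labels number the replicates without saying that they are separate animals. The p-values thus rest on a spread between samples, which may not be that between animals.

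Sphingolipids are built on a backbone made from serine and a fatty acyl-CoA. Serine palmitoyltransferase starts the pathway, ceramide synthases attach an acyl chain whose length depends on the isoform, and a desaturase then turns dihydroceramide into ceramide. Ceramide receives a phosphocholine head group to become sphingomyelin or a glucose to become glucosylceramide, or it is cleaved to sphingosine, which sphingosine kinases phosphorylate. In adipose tissue of obese animals, ceramides are known as lipids associated with insulin resistance, and sphingolipid turnover is also active in macrophages.

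The total counted in genes was 8054560 to 22458630 reads in KO libraries and 17394489 to 21576075 in WT libraries. Mpst had 3, 10 and 9 counts in the KO libraries and 1358, 1394 and 1624 in the WT libraries, so each library matched its genotype label. Skeletal muscle transcripts stood out in 1 library of each genotype, with a summed level of 2092 CPM (reads scaled to a common, normalised library size) in KO replicate 3 and 887 CPM in WT replicate 2, against 44.5 to 144 CPM in the other libraries. Macrophage markers were higher in KO, with 9 of 14 called higher and none lower, and summed to 1890 to 2047 CPM in KO and 579 to 1087 CPM in WT. All 12 adipocyte markers were detected at 53977 to 59937 CPM summed in KO and 72302 to 84408 CPM in WT, with 3 called lower. Of 8 progenitor and fibroblast markers 3 were called higher (Dcn, Col3a1 and Lum) and none lower. The list went both ways, with 6 markers above 0 and 2 below, and log2 fold changes from −2.10 to 1.48. All 8 summed to 4575 to 5614 CPM in KO and 2898 to 3927 CPM in WT. No marker of T cells (7 tested, 16.6 to 41.6 CPM summed in KO and 13.5 to 18.7 CPM in WT), B cells (6 tested, 9.29 to 12.2 and 5.62 to 12.3 CPM), endothelium (8 tested, 1293 to 1528 and 1218 to 1334 CPM), muscle (10 tested) or epithelium (1 tested of 7 listed, with Krt14 at 0) was called. In bulk tissue, fewer cells of a type and less RNA per cell cannot be told apart.

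Sgms1 was the member that changed. It encodes sphingomyelin synthase 1, the Golgi enzyme that moves phosphocholine onto ceramide. Its normalised level was 74.8, 80.6 and 71.2 CPM in the KO libraries, against 32.7, 37.2 and 43.3 CPM in the WT libraries. The groups were far apart, with the lowest KO library above the highest WT library. The mean was 75.5 ± 4.73 CPM in KO and 37.7 ± 5.35 CPM in WT (SD, n = 3 each), a 2.0-fold rise (log2 fold change 1.0, SE 0.13, adjusted p = 0.0128 by edgeR's quasi-likelihood test over all tested genes). The 95% interval of the fold change ran from 1.62 to 2.46.

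With 1 of 10 members called higher and none lower, the members stood near the background, since the same test called 7.41% of all tested genes, 4.76% higher and 2.65% lower. KO and WT were fully separated in 2 members, Sgms1 and Ugcg (20.0%), against 33.3% of all tested genes. An unadjusted p under 0.05 was reached by 2 members, against 27.6% of all tested genes. Sgms1 was also the member called by limma-voom, which called 7.64% of all genes it tested, and by DESeq2, which called 13.7%. The share of higher calls over all genes was 64.2%, against 50.5% after correction of every library for GC content and exon length. Without that correction it was 53.9% with DESeq2, 51.8% with replicate number as a block and 55.1% without WT replicate 3. It was 65.2% with limma-voom and 67.2% without WT replicate 1. The cause of these differences was not tested. Across the members the median log2 fold change was 0.15 (range −0.21 to 1.0), against 0.005 over all tested genes. The call of Sgms1 needed most of the libraries: its adjusted p was 0.0513, 0.0598 and 0.0534 without KO replicates 1, 2 and 3 and 0.0933 without WT replicate 2, with log2 fold changes from 0.91 to 1.12 over all 6 such fits. Without both libraries rich in muscle transcripts the adjusted p was 0.268, at a log2 fold change of 1.03. After the GC and length correction Sgms1 kept its call at a smaller log2 fold change, 0.79 (edgeR adjusted p = 0.0167). That was its lowest value over all alternatives run.

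**Figure D1:**
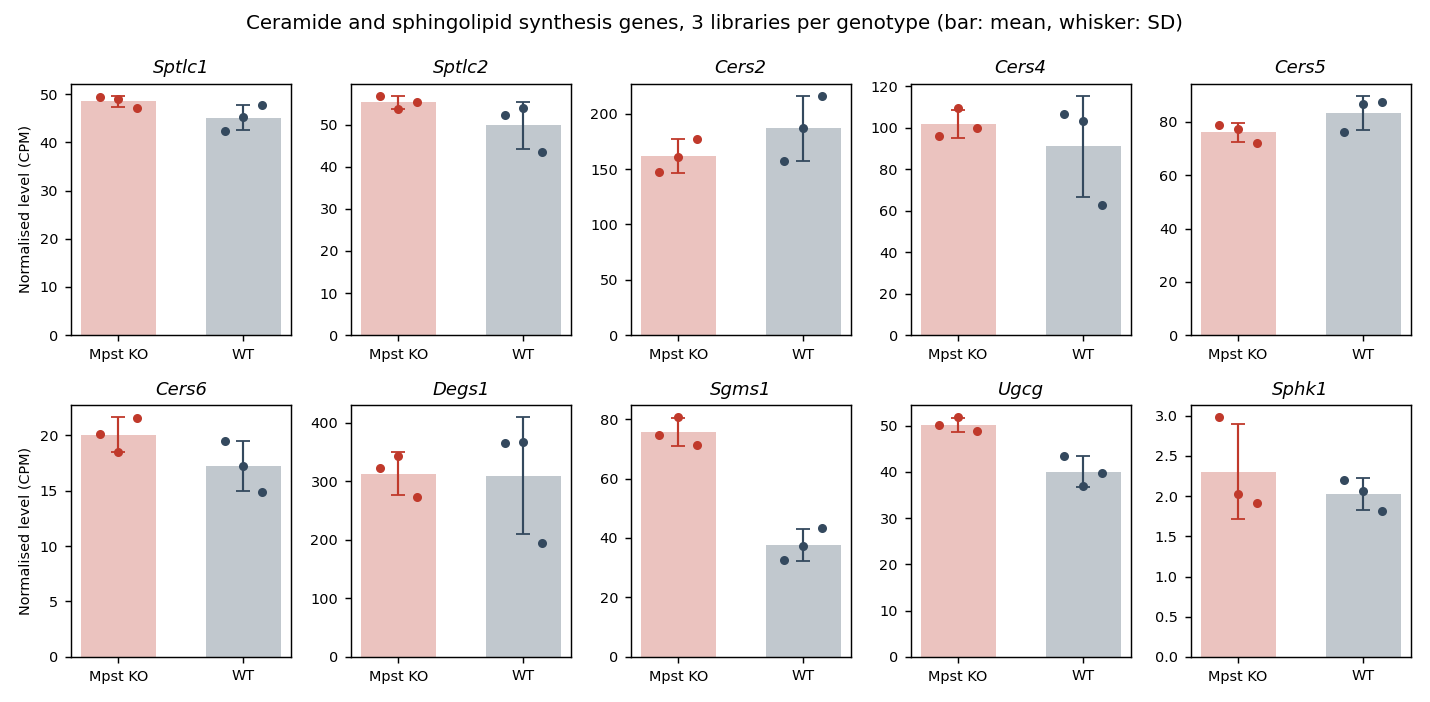
Normalised level (CPM, vertical axis from 0) of each member in the 3 KO and the 3 WT libraries. Points are libraries, bars are means and whiskers are SD. Sgms1 separates the genotypes by the widest margin, Ugcg by a narrow one, and the other 8 members overlap, with WT replicate 3 (the right-hand WT point) low for Cers4 and Degs1.

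Sgms1 (ENSMUSG00000040451.18) lies at chr19:32122727-32389714 on the minus strand of GRCm38, the assembly behind mm10, with 15 annotated transcripts. RefSeq lists 4 start sites for it. Counts per gene do not tell which start was used, so the outermost and the innermost promoter window (300 bases around the start, RefSeq on GRCm38.p6, minus strand) are shown as the sequences next to the member that changed. Capitals mark matches to the motifs searched on both strands. These were the GC box, spelled GGGCGG, the CCAAT box, the E-box as CACGTG, the AP-1 site as TGANTCA, the PU.1 core as GAGGAA and the TATA box as TATAAA. No matches overlapped.
Sgms1 outermost start, chr19:32388463-32388762: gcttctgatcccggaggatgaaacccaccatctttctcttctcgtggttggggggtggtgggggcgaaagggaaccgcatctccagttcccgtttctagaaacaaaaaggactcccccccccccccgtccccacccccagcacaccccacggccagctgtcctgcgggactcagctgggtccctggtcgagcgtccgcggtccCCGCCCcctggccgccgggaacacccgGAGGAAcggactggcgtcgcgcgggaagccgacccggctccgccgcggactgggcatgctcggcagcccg
Sgms1 innermost start, chr19:32210964-32211263: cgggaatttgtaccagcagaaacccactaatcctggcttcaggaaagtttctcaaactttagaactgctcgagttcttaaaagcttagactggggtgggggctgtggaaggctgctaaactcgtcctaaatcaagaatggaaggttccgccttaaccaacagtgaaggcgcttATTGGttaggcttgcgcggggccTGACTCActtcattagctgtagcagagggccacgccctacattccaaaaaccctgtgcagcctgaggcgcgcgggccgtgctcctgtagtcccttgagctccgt

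The outermost window held 1 GC box and 1 PU.1 core, and the innermost held 1 CCAAT box and 1 AP-1 match. Among all 32851 promoter windows of the RefSeq table, 35.7% hold GGGCGG, 28.3% GAGGAA, 37.4% CCAAT and 7.81% TGANTCA, while 7.15% hold CACGTG and 13.6% TATAAA. These matches describe letters in the windows and are no evidence of binding.

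Genes next to Sgms1 were looked at as well. 2700046G09Rik, a long non-coding RNA annotated as sharing a bidirectional promoter, overlaps 10 bases of Sgms1's exons on the opposite strand. It averaged 9.72 ± 1.46 CPM in KO and 16.2 ± 2.89 CPM in WT (SD, n = 3 each), with a log2 fold change of −0.73 that did not pass the test (edgeR adjusted p = 0.0549). Asah2, the neutral ceramidase gene, lies 14515 bases beyond the far end of Sgms1 on the same strand. It had 21.2, 17.8 and 26.0 CPM in KO and 12.6, 13.1 and 18.3 CPM in WT. Its groups overlapped by a small margin and it was not called (log2 fold change 0.56, edgeR adjusted p = 0.112). 2700046G09Rik was chosen after its values were seen.

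Ugcg encodes glucosylceramide synthase, which adds glucose to ceramide and so starts the glycosphingolipids (chr4:59189257-59222833, plus strand). Its level was 50.1, 51.8 and 48.8 CPM in KO, against 43.5, 36.9 and 39.7 CPM in WT. Every KO library was above every WT library, yet the difference was small and the gene was not called. The log2 fold change was 0.33 (SE 0.11, edgeR adjusted p = 0.104), and its 95% interval was 0.07 to 0.58, before adjustment for the number of genes. Over the alternatives run, its adjusted p lay between 0.0606 and 0.512. So of the members that add a head group to ceramide, Sgms1 passed the test and Ugcg did not. The difference between Sgms1 and Ugcg was not tested.

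Macrophage markers were set beside Sgms1 library by library. In the WT libraries Sgms1 stood at 32.7, 37.2 and 43.3 CPM where the 14 macrophage markers summed to 1087, 964 and 579 CPM, an opposite order. In the KO libraries Sgms1 stood at 74.8, 80.6 and 71.2 CPM where the markers summed to 1905, 2047 and 1890 CPM, the same order. The part of macrophages or adipocytes in the genotype difference was not tested.

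Sgms1 has a pair of relatives, Sgms2, a second sphingomyelin synthase, and Samd8, which makes ceramide phosphoethanolamine. Per kilobase of merged exons, Sgms1 averaged 7.16 CPM in KO and 3.58 CPM in WT, Samd8 4.30 and 3.19 CPM, and Sgms2 1.44 and 1.17 CPM. Neither relative was called (Sgms2 log2 fold change 0.31, adjusted p = 0.358; Samd8 0.43, adjusted p = 0.107, by edgeR). Sgms1 made up 55.6%, 54.8% and 56.3% of this family's level per kilobase in the KO libraries, against 39.6%, 48.3% and 47.3% in the WT libraries. The share in every KO library was thus above that in every WT library. Sgms1 is part of this share and was chosen for its call, so the share is no separate support. With the length of the longest transcript in place of merged exons, the mean share was 74.6% in KO and 65.8% in WT.

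The subunits of serine palmitoyltransferase did not pass the test. This enzyme condenses serine and palmitoyl-CoA in the endoplasmic reticulum and is the rate-limiting step of the pathway. Sptlc1, the subunit shared by its complexes (chr13:53332748-53377397, minus strand), had 49.4, 49.0 and 47.1 CPM in KO and 42.4, 45.3 and 47.7 CPM in WT. Sptlc2, the subunit that binds the pyridoxal phosphate cofactor (chr12:87305058-87388355, minus strand), had 56.9, 53.7 and 55.4 CPM in KO and 52.3, 53.9 and 43.5 CPM in WT. For each gene the groups overlapped. The fold change was 1.07 for Sptlc1 (95% interval 0.908 to 1.27, edgeR adjusted p = 0.570) and 1.11 for Sptlc2 (0.919 to 1.34, edgeR adjusted p = 0.453). The difference between Sgms1 and either subunit was not tested.

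**Figure D2:**
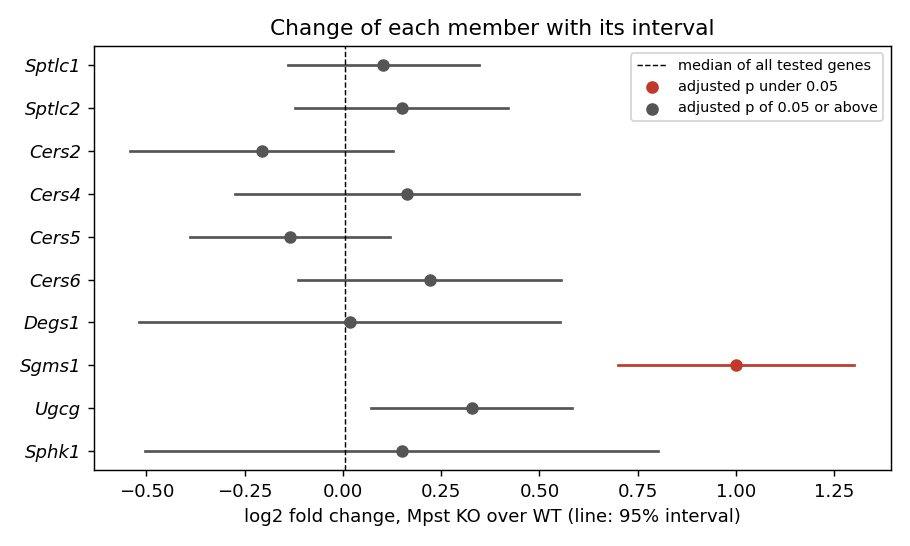
Log2 fold change of KO over WT for each member (horizontal axis), with its 95% interval before adjustment for the number of genes as a line. Sgms1 at 1.0 is the member past the threshold; the interval of Ugcg (0.07 to 0.58) lies above 0, and those of the other 8 members include 0.

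None of the 4 ceramide synthases among the members passed the test. Cers2 makes ceramides with very long acyl chains (chr3:95314791-95323599, plus strand). Its level was 147, 161 and 177 CPM in KO and 157, 187 and 216 CPM in WT, with overlap and a log2 fold change of −0.21 (95% interval −0.54 to 0.13, edgeR adjusted p = 0.399). Cers5, which prefers palmitoyl-CoA (chr15:99734881-99772885, minus strand), had 78.8, 77.4 and 72.2 CPM in KO and 76.2, 86.8 and 87.6 CPM in WT. Its log2 fold change was −0.13 (−0.39 to 0.12, edgeR adjusted p = 0.476). Neither Cers2 nor Cers5 passed the test.

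Cers6, the other isoform with a preference for palmitoyl-CoA and one linked to obesity in mice (chr2:68861441-69114282, plus strand), had 20.2, 18.4 and 21.6 CPM in KO and 19.5, 17.3 and 14.9 CPM in WT. The groups overlapped, with a log2 fold change of 0.22 (95% interval −0.11 to 0.56, edgeR adjusted p = 0.364). Cers4, which uses long to very long acyl-CoAs (chr8:4493026-4531680, plus strand), had 96.2, 109.5 and 100.1 CPM in KO and 106.9, 103.6 and 63.0 CPM in WT. WT replicate 3 was the low sample, and the log2 fold change of 0.16 (edgeR adjusted p = 0.626) was −0.04 without it and −0.07 after the GC and length correction. Of the isoforms outside the members, Cers1 was listed at 0 in all libraries and Cers3 had 1 to 6 counts, and neither was tested. Cers1 shares 42.5% of its exonic bases with Gdf1 on the same strand. Whether this overlap bears on its counts was not tested.

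Per kilobase of merged exons, Cers2 made up most of the summed level of Cers1 to Cers6. Its share was 55.2%, 57.1% and 60.8% in the KO libraries and 56.8%, 59.2% and 65.0% in the WT libraries. Cers5 averaged 28.3% ± 2.50 in KO and 28.2% ± 0.740 in WT, Cers4 10.9% ± 0.668 and 9.04% ± 3.04, and Cers6 2.97% ± 0.231 and 2.35% ± 0.538 (SD, n = 3 each). The make-up overlapped between genotypes for Cers2, Cers4 and Cers5. For Cers6 the shares were 3.14%, 2.71% and 3.07% in KO and 2.92%, 2.27% and 1.86% in WT, which also overlap. On this scale the order Cers2, Cers5, Cers4, Cers6 held in every library. As a share of plain CPM, which is not corrected for the longer exons of Cers4, Cers4 took 28.3% in KO and 24.2% in WT, above Cers5 at 21.2% and 22.0%, and Cers2 took 44.9% and 49.2%. The KO minus WT difference in share was −2.64 points for Cers2 and 1.89 points for Cers4, and −0.295 and 0.204 points without WT replicate 3. Without WT replicate 1 these differences were −4.42 and 3.16 points, and that of Cers2 was −4.18 points without KO replicate 3 and −1.38 points without KO replicate 1.

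**Figure D3:**
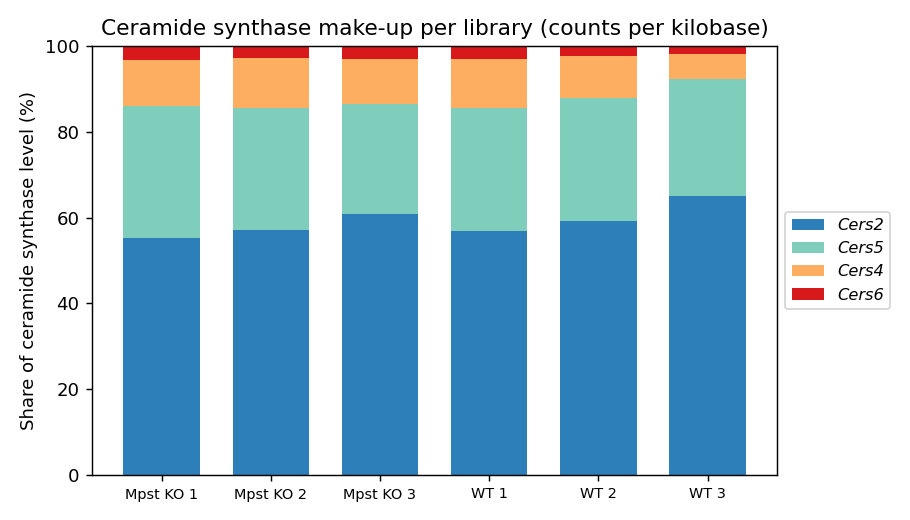
Share of each ceramide synthase in the summed level of the family (counts per kilobase of merged exons, %), 1 stacked bar per library, KO then WT. Cers1, at 0, and Cers3, at under 0.1%, are not visible. Cers2 takes 55.2% to 65.0% of each bar, and the bar of WT replicate 3 has the smallest parts for Cers4 and Cers6.

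Degs1 encodes the desaturase that puts the double bond into dihydroceramide (chr1:182275772-182282804, minus strand) and had the highest level per kilobase of all members, 120.7 CPM per kilobase in KO and 119.3 in WT. Its level was 323, 343 and 273 CPM in KO and 366, 368 and 194 CPM in WT. The spread within WT was wider than any difference between genotypes, with WT replicate 3 well below the other WT libraries. The log2 fold change was 0.02 (95% interval −0.52 to 0.55, edgeR adjusted p = 0.970). It was −0.22 without WT replicate 3 (edgeR adjusted p = 0.271), and its sign also turned in other alternatives, so no direction is given for Degs1.

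Sphk1 encodes a sphingosine kinase that makes sphingosine-1-phosphate (chr11:116530925-116536674, plus strand) and had the lowest level per kilobase, 0.483 CPM per kilobase in KO and 0.425 in WT. Its raw counts were 25, 46 and 45 in KO and 36, 34 and 39 in WT, or 2.98, 2.02 and 1.91 CPM in KO and 2.21, 2.07 and 1.81 CPM in WT. At this depth a fold change between 0.706 and 1.74 is within the 95% interval (log2 fold change 0.15, edgeR adjusted p = 0.774). Per kilobase of merged exons, the members in WT followed the order Degs1, Cers2, Cers5, Sptlc1, Ugcg, Cers4, Sptlc2, Sgms1, Cers6 and Sphk1, from 119.3 to 0.425 CPM per kilobase. Ugcg, Cers4 and Sptlc2 lay at 7.68 ± 0.631, 7.43 ± 1.99 and 6.15 ± 0.687 CPM per kilobase in WT (SD, n = 3), and the libraries of Cers4 overlapped with those of either other gene, while each WT library of Ugcg was above each of Sptlc2. In KO the values were 9.63 for Ugcg, 8.31 for Cers4, 7.16 ± 0.449 for Sgms1 and 6.82 ± 0.196 for Sptlc2 (± SD, n = 3). By these means Sgms1 stood above Sptlc2 in KO and below it in WT, but the KO libraries of the pair overlapped. With the longest transcript as length Sgms1 stood above Sptlc2 in both genotypes.

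Beyond the members, 60 further genes of sphingolipid metabolism were listed and 53 of them tested. Of these 7 were called higher in KO and none lower, a share of 13.2% against 7.41% of all tested genes. Asah1 and Acer3 cleave ceramide, Cerk phosphorylates it, B4galnt1 and Gla build and trim glycosphingolipids, Sgpp1 dephosphorylates sphingosine-1-phosphate, and Rtn4 is a reticulon known to bind and restrain serine palmitoyltransferase. The median log2 fold change over the 53 genes was 0.28, with 45 above 0 and 8 below, against a median of 0.005 and 50.5% above 0 over all tested genes. KO and WT were fully separated in 37.7% of the 53 genes, against 33.3% of all tested genes. These were 19 genes higher and 1 gene lower in KO, where all tested genes had 17.8% higher and 15.5% lower. The count of 7 was 0 without any of KO replicates 1, 2 and 3 or without WT replicate 2, and 0 without the libraries rich in muscle transcripts. It was 11 without WT replicate 3, where 1 gene was called lower, and 4 higher and 1 lower after the GC and length correction. In the same libraries 9 of 14 macrophage markers were called higher and all 14 had a log2 fold change above 0. The part of macrophages in these counts was not tested.

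**Figure D4:**
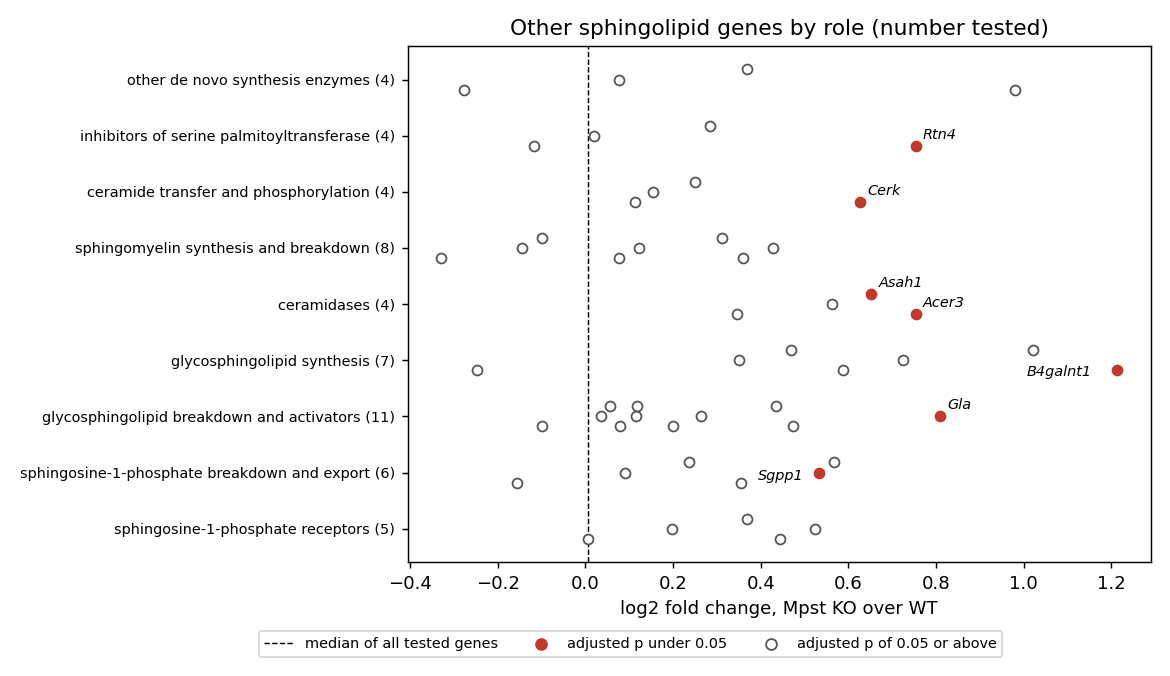
Log2 fold change of KO over WT (horizontal axis) for the 53 other sphingolipid genes tested, by role, with the number tested in brackets. Filled points passed the test and are named; points are spread vertically for legibility. The ceramidases all lie above 0, between 0.35 and 0.75. So do all tested genes of ceramide transfer and phosphorylation and all sphingosine-1-phosphate receptors, and 45 of the 53 genes in total. The median of all tested genes is at 0.005.

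Of the 4 tested ceramidases, which split ceramide into sphingosine and a fatty acid, 2 were called higher and 2 did not pass. Asah1, the acid ceramidase of lysosomes, had 88.4, 84.7 and 89.9 CPM in KO, against 52.6, 50.9 and 63.7 CPM in WT. The groups were well apart, with a 1.57-fold rise (log2 fold change 0.65, SE 0.12, edgeR adjusted p = 0.0240). Acer3, an alkaline ceramidase of Golgi and endoplasmic reticulum, had 21.6, 21.7 and 20.7 CPM in KO, against 15.5, 12.5 and 10.03 CPM in WT. It rose 1.69-fold (log2 fold change 0.75, SE 0.17, edgeR adjusted p = 0.0379). Acer2, another Golgi ceramidase, averaged 79.9 ± 11.8 CPM in KO and 62.9 ± 29.3 CPM in WT (edgeR adjusted p = 0.483). Asah1 lost its call without any of the libraries except WT replicate 3, with adjusted p from 0.0507 to 0.120 at log2 fold changes of 0.59 to 0.68. It and Acer3 lost the call after the GC and length correction (adjusted p = 0.0545 and 0.163, log2 fold changes 0.46 and 0.48).

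Ceramide kinase, Cerk, had 47.9, 44.5 and 47.7 CPM in KO, against 34.3, 31.9 and 24.6 CPM in WT. It rose 1.54-fold with no overlap (log2 fold change 0.63, SE 0.14, edgeR adjusted p = 0.0372). Col4a3bp, now also called Cert1, whose product carries ceramide from the endoplasmic reticulum to sphingomyelin synthase in the Golgi, averaged 62.4 ± 5.02 CPM in KO and 52.5 ± 4.44 CPM in WT and was not called (log2 fold change 0.25, edgeR adjusted p = 0.207).

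**Figure D5:**
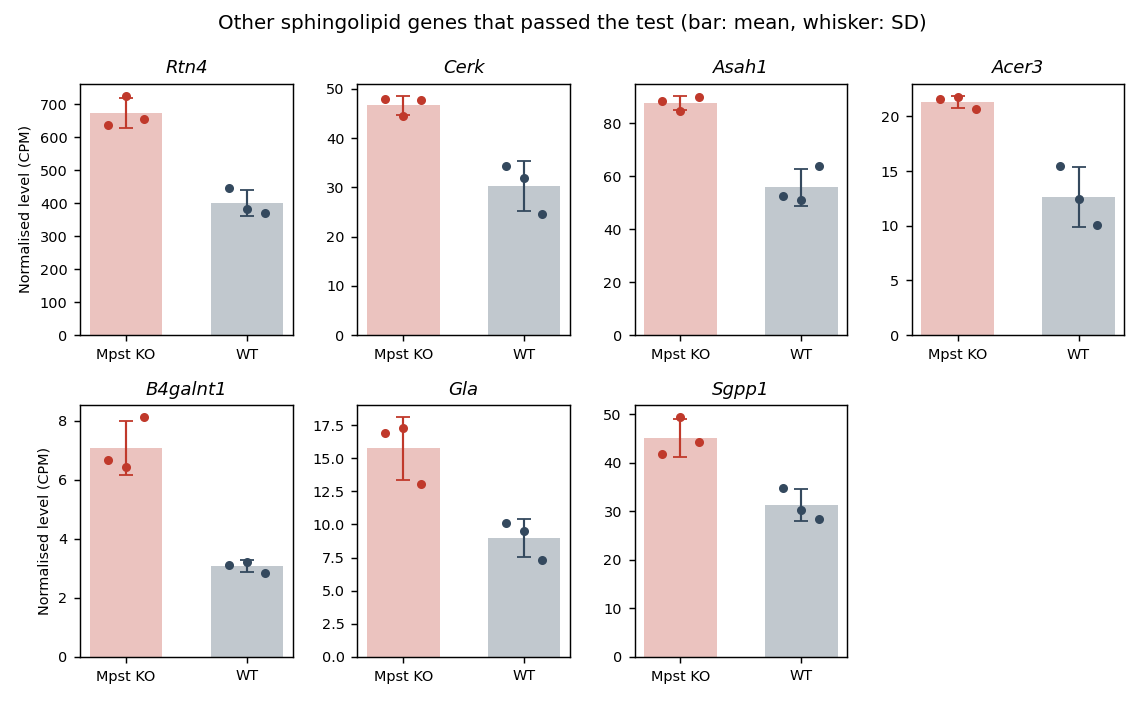
Normalised level (CPM, vertical axis from 0) in KO and WT libraries of the 7 other sphingolipid genes that passed the test. Points are libraries, bars means and whiskers SD; in each panel the lowest KO point is above the highest WT point.

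In glycosphingolipid synthesis 1 of 7 tested genes was called. B4galnt1, which makes the gangliosides GM2 and GD2, had 6.68, 6.43 and 8.11 CPM in KO, against 3.13, 3.22 and 2.83 CPM in WT. This was the largest rise among the 7 called, 2.32-fold (log2 fold change 1.21, SE 0.21, edgeR adjusted p = 0.0188), from low levels. It shares 20.7% of its exonic bases with Slc26a10 on the opposite strand, which averaged 7.40 ± 0.542 CPM in KO and 5.02 ± 0.379 CPM in WT, and the kit does not mark strand. B4galt5, which makes lactosylceramide from glucosylceramide, averaged 16.8 ± 4.24 CPM in KO and 10.3 ± 1.23 CPM in WT and did not pass (edgeR adjusted p = 0.0687).

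Of 11 genes of glycosphingolipid breakdown and their activators, Gla was called. Gla, the lysosomal alpha-galactosidase that clears globotriaosylceramide, had 16.9, 17.3 and 13.0 CPM in KO, against 10.1, 9.48 and 7.34 CPM in WT. It rose 1.75-fold (log2 fold change 0.81, SE 0.19, edgeR adjusted p = 0.0397). Its adjusted p was 0.0738 with all libraries thinned to the smallest, 0.0545 after the GC and length correction, and 0.0508 to 0.141 without any library except WT replicate 3. The log2 fold change in those fits was 0.75, 0.69, and 0.73 to 0.93. Psap, the precursor of the saposins that present these lipids to lysosomal enzymes, averaged 2361 ± 72.5 CPM in KO and 1701 ± 207 CPM in WT (log2 fold change 0.47, edgeR adjusted p = 0.0896).

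Among genes that act on sphingosine-1-phosphate, 1 of 6 tested was called. Sgpp1, a phosphatase of the endoplasmic reticulum that returns sphingosine-1-phosphate to sphingosine, had 41.7, 49.4 and 44.2 CPM in KO, against 34.9, 30.3 and 28.5 CPM in WT. It rose 1.45-fold (log2 fold change 0.53, SE 0.13, edgeR adjusted p = 0.0425). That p was 0.101 after the GC and length correction. Sgpl1, the lyase that ends the pathway, averaged 89.2 ± 5.14 CPM in KO and 60.2 ± 14.0 CPM in WT without passing (log2 fold change 0.57, edgeR adjusted p = 0.0687). Of the 5 receptors none was called. S1pr1, with the smallest p, averaged 195.8 ± 27.2 CPM in KO and 143.7 ± 10.1 CPM in WT (log2 fold change 0.44, edgeR adjusted p = 0.0804).

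Of 4 inhibitors of serine palmitoyltransferase, Rtn4 was called higher and the others did not pass; a difference between them was not tested. Rtn4 had 639, 726 and 656 CPM in KO, against 445, 383 and 372 CPM in WT. It rose 1.69-fold (log2 fold change 0.75, SE 0.14, edgeR adjusted p = 0.0220). Of its exonic bases, 18.4% lie on those of Eml6 on the opposite strand, which averaged 2.102 ± 0.312 CPM in KO and 0.977 ± 0.370 CPM in WT. The 3 ORMDL genes, whose products sense ceramide and hold the enzyme back, had log2 fold changes of 0.28 for Ormdl1, 0.02 for Ormdl2 and −0.12 for Ormdl3, with edgeR adjusted p from 0.299 to 0.960. Ormdl3 was the most abundant of them, at 477 ± 43.4 CPM in KO and 517 ± 50.3 CPM in WT, and Ormdl2 shares 66.7% of its exonic bases with Dnajc14 on the opposite strand.

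No other enzyme of de novo synthesis was called. Kdsr, which reduces the first product of serine palmitoyltransferase, averaged 51.3 ± 3.97 CPM in KO and 62.0 ± 4.38 CPM in WT. It was the gene that lay lower in KO without overlap of the groups, and it did not pass (log2 fold change −0.28, edgeR adjusted p = 0.162). Degs2, a desaturase that also hydroxylates, had 3.34, 3.74 and 5.86 CPM in KO and 2.21, 2.49 and 1.95 CPM in WT (log2 fold change 0.98, edgeR adjusted p = 0.0712). It shares 10.8% of its exonic bases with Evl on the opposite strand, which rose itself (log2 fold change 1.14, edgeR adjusted p = 0.0120). Sptssa, the small activating subunit of serine palmitoyltransferase, averaged 85.9 ± 11.3 CPM in KO and 81.4 ± 9.07 CPM in WT (edgeR adjusted p = 0.766). Sptlc3 had 0 to 3 counts per library and was not tested.

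In sphingomyelin breakdown, Smpd1, the acid sphingomyelinase of lysosomes, averaged 130 ± 11.7 CPM in KO and 144 ± 18.8 CPM in WT (log2 fold change −0.15, edgeR adjusted p = 0.529). Smpd2, a neutral sphingomyelinase, averaged 43.7 ± 4.23 CPM in KO and 54.9 ± 6.58 CPM in WT (log2 fold change −0.33, edgeR adjusted p = 0.151). Smpdl3a, a relative of acid sphingomyelinase, averaged 193 ± 34.3 CPM in KO and 150 ± 23.5 CPM in WT (log2 fold change 0.36, edgeR adjusted p = 0.212). None of the 8 tested genes of sphingomyelin synthesis and breakdown outside the members was called. Of these other genes, Sgms2, Asah2, Acer2, Col4a3bp, B4galt5, Psap, Sgpl1, Ormdl1, Ormdl2, Ormdl3, Kdsr, Sptssa, Smpd1, Smpd2, Smpdl3a and the overlapping genes were chosen after their values were seen.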

How the data were processed

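The submitters' processing notes name HISAT2 2.1.0, HTSeq 0.13.5, DESeq2 1.26 and the build mm10; no source used here gives the annotation or the counter's settings. Per the labels' protocols, libraries were made with a kit that does not mark strand. The deposited values are raw read counts per gene symbol, and the authors' files end in lines of totals, which were left out (reads in no feature were 8.85% to 14.7% of uniquely placed reads).

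The members, and the gene lists, were chosen with earlier results of these data known. Counts were tested in R 4.3.3 with edgeR 4.0.16: filterByExpr, trimmed-mean scaling and a robust quasi-likelihood F test of KO against WT over 14065 genes, adjusted by Benjamini-Hochberg and called under 0.05. Labels number replicates in both genotypes without saying that they are paired, so no pairing was used in the main fit. SE is the log2 fold change over the square root of F, and 95% intervals use the fit's degrees of freedom. The test was checked on simulated data. No 2 libraries of a group agreed within sampling noise (mean chi-square 7.94 to 124 per gene). Exon lengths and positions came from GENCODE M21. All members are named, as is each other sphingolipid gene called or, in a subgroup with none called, that with the smallest p. Alternatives included DESeq2 1.42.0 and limma 3.58.1. Proteins were not used here. A withheld item is not reported here.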

Additional observations from a re-analysis of the deposited data

How the results depend on the processing

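Over all tested genes, 669 called higher and 373 lower became 1026 and 877 with DESeq2, 1387 and 1289 with a replicate block, and 387 and 379 after the GC and length correction. Leaving out 1 library gave 0 to 1434 higher and 1 to 1167 lower, the low counts without any KO library or WT replicate 2 and the high ones without WT replicate 3. Without both libraries rich in muscle transcripts, 0 were called higher and 1 lower. That alternative and thinning were chosen after seeing the data. The members called higher (1) numbered 0 without that pair and 0 to 1 without 1 library; 0 were lower in every fit. The 7 other sphingolipid genes became 11 with DESeq2, 14 with the replicate block, 4 after the GC and length correction and 0 without the muscle-rich pair, with 0 to 11 without 1 library. Of these other genes 1 was called lower after the GC and length correction, and 0 to 1 without 1 library. The replicate block added a call for S1pr1 (adjusted p = 0.0272 by edgeR). Same-numbered libraries correlated at 0.171, −0.099 and 0.303 in their deviations, against −0.399 to 0.357 for libraries of different number. With so few libraries, these values cannot tell whether the samples were paired. DESeq2 added Degs2 (adjusted p = 0.0401).

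Several log2 fold changes that were not called changed sign. After the GC and length correction they were −0.0707 for Cers4, −0.0517 for Degs1 and −0.0363 for Sptlc2. Thinning gave −0.0092 for Degs1. Without 1 library, Cers4 ran from −0.0402 to 0.30, Degs1 from −0.22 to 0.16, with −0.0056 without KO replicate 1 and −0.0552 without KO replicate 2, and Sphk1 from −0.0415 to 0.27. The KO minus WT share of Cers4 was 4.17 percentage points without length scaling, against 1.89, and 0.204 to 3.16 without 1 library. The cause of these shifts was not tested. Depth limits the precision for Sphk1, with 25 to 46 counts per library.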
